A study of Mus musculus with 4 samples.

Results

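Mature osteoblasts of the postnatal day 6 (P6) mouse tibia were chosen by their Ifitm5 and Col1a1 counts from 1 single-cell library. A barcode was a member when it held at least 1600 genes and at most 10% of its transcript counts (UMIs, unique molecular identifiers, 1 per transcript molecule caught) from mt- genes, Col1a1 at 20 or more UMIs per 10000 UMIs of the barcode, Col2a1 under 50 per 10000, at most 1 Ptprc UMI and Ifitm5 at 3 or more per 10000. Cells with both at least 10 Dmp1 and at least 5 Phex UMIs were set aside. This gave 317 cells out of 14181 barcodes, or 3.84% of the 8256 barcodes past the limits on genes and mt- UMIs (exact Clopper-Pearson 95% interval 3.44 to 4.28%).

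Osteoblasts build bone by secreting type I collagen and the proteins that guide its mineral. Late in their maturation they switch on Ifitm5, which encodes a small membrane protein of mineralizing osteoblasts also called BRIL, and osteocalcin, a bone matrix protein encoded by Bglap and Bglap2. Some osteoblasts descend from hypertrophic chondrocytes (HCs) of the growth plate and others come from the perichondrium and marrow stroma.

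The study asked how descendants of HCs contribute to bone. Its P6 library pooled 2 tibiae of 1 male mouse with the genotype Col10a1Cre;Rosa26-Tdtomato;Irx3 +/Δ;Irx5 +/-, which the labels call a control heterozygous for Irx3/5, with no treatment. Cre was driven by Col10a1, a gene of HCs, so that the Rosa26 reporter marks HCs and the cells that come from them. By the study's genotype Irx5 was heterozygous in every cell, while 1 copy of Irx3 was deleted by the same Cre, in HCs and their descendants. Irx3 dose and HC origin therefore cannot be told apart in any contrast by reporter, and the reporter transcript is counted through its WPRE sequence. The 4 sequencing entries were counted together as 1 library, so that there is 1 mouse and no replicate. No test is possible, cells are not treated as replicates, and the 95% intervals given below cover counting error only.

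The members held 6394686 UMIs, with 4916 at the lowest, 18644 at the median and 66055 at the highest, and a median of 3665 genes per cell. They were set beside 695 cells that passed the same gates but had Ifitm5 under 3 per 10000 (Ifitm5-low cells, median 10490 UMIs), of which 575 had no Ifitm5 UMI. The 31 cells set aside for Dmp1 and Phex, 2 genes that osteocytes and late osteoblasts use, formed a second comparison group (median 21723 UMIs). That gate counts raw UMIs and so favours deeply sequenced cells. Near the Ifitm5 limit, 37 members lay between 3 and 4 per 10000 and 35 Ifitm5-low cells between 2 and 3. Of the 371 barcodes past the first limits with enough Ifitm5, 4 were lost to the Col1a1 gate, 7 to Col2a1, 12 to Ptprc and 31 to Dmp1 and Phex. Scrublet called 2 members (0.631%) and 14 Ifitm5-low cells doublets.

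Where 3 of the genes that the results turn on start is shown by the bases just before them. Each sequence is the 130 bases before the outermost annotated start in the RefSeq promoters of GRCm38.p6, on the strand of the gene. They lie at chr7:140950292-140950421 (minus strand) for Ifitm5, chr3:88384467-88384596 (minus strand) for Bglap and chr5:104299041-104299170 (plus strand) for Ibsp.
Ifitm5: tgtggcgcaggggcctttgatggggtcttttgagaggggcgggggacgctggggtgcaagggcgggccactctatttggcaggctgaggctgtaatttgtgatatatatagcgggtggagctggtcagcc
Bglap: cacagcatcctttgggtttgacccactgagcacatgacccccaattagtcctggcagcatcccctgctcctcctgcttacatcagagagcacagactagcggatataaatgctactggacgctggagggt
Ibsp: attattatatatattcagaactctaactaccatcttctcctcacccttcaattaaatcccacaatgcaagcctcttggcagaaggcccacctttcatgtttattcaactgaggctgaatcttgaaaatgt
The letters TGTGGT, the core recognised by Runx factors, and their reverse ACCACA were not found in any of the 3 windows, and 7.26% of 32851 promoter windows of this length hold them. A window of 200 bases was added after this search had found no match, and only Ifitm5 and Bglap had that much sequence (134 bases were at hand for Ibsp). It held ACCACA once before Bglap, starting 132 bases before the start, at the edge of the first window, and neither form before Ifitm5. Of all windows of 200 bases, 11.2% hold either form. Because the window was lengthened in search of a match, this is a description and supports nothing.

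The label was checked against Bglap, Bglap2 and Car3, since Ifitm5 chose the cells. Gene levels are UMIs summed over a group per 1000000 UMIs of the group (CPM). Bglap (ENSMUSG00000074483, GRCm38 chr3:88383501-88384464) stood at 10732 CPM (95% Poisson interval 10652 to 10813) in mature osteoblasts, 1108 CPM in Ifitm5-low cells and 12.4 CPM in 1308 leukocytes. Levels in leukocytes are a guide to free RNA, but doublets may add to them, since Scrublet called 124 of these cells (9.48%). Car3 (chr3:14863512-14872523), a carbonic anhydrase, stood at 872 CPM (850 to 896), 80.1 CPM and 4.82 CPM in the same groups. Bglap2 (chr3:88377736-88378699) stood at 4559, 514 and 6.49 CPM.

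The markers were not equally even among the cells. Car3 had a lowest value of 0, a median of 7.02 and a highest value of 33.1 UMIs per 10000, and 14 of 317 members had none. Ifitm5, which the gate fixed from below, ran from 3.03 through a median of 7.65 to 38.1 per 10000. Bglap had a median of 2.37 and reached 1106 per 10000, with 91 members at 0. After each cell was thinned to 5000 UMIs, Car3 was found in 84.2% of members (79.7 to 88.0%) and Bglap in 57.6% (51.9 to 63.1%), against 1.52% and 6.81% of leukocytes. Without thinning the shares were 95.6% and 71.3% of members (median 18644 UMIs) and 4.74% and 15.4% of leukocytes (median 12781.5 UMIs). Car3 was thus found in nearly all members without thinning, while osteocalcin, the usual mark of a mature osteoblast, was missing in many.

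Type I collagen transcripts were the most abundant. Col1a1, a gate gene, stood at 63295 CPM and Col1a2 at 59213 CPM, ahead of the collagen-binding protein gene Sparc at 29317 CPM and osteopontin (Spp1) at 11791 CPM. Bone sialoprotein (Ibsp) stood at 7367 CPM (7300 to 7434). The collagen chaperone gene Serpinh1 reached 4134 CPM, the proteoglycan gene Dcn 2702 CPM and the fibrillar collagen gene Col5a2 2693 CPM. Bglap3, a close copy of Bglap and Bglap2, stood at 3633 CPM, and because the 3 genes are nearly identical the split of reads among them is uncertain. Haemoglobin Hbb-bs was among the 20 most abundant genes at 3931 CPM, against 7967 CPM in Ifitm5-low cells.

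Against Ifitm5-low cells, mature osteoblasts had higher levels of 7 of 14 mineral matrix genes and 11 of 26 collagen-processing enzymes, and lower levels of 23 of 26 genes of immature osteoblasts and stroma and 7 of 8 tendon and fibroblast markers. Of 8534 genes at 10 CPM or more in either group, 268 (3.14%) were at least 2-fold higher in mature osteoblasts and 1557 (18.2%) at least 2-fold lower. The median over all genes was -0.44 on the log2 scale with 1 CPM added, and changes are best read relative to that shift. With scaling to the median ratio 373 were higher and 1183 lower, which moved the share of higher calls from 14.7 to 24%. The gates chose both groups, so these values describe them and none is independent of the choice.

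Slc13a5, which encodes a citrate transporter, had the highest ratio. It stood at 186 CPM (176 to 197) in mature osteoblasts and 3.78 CPM (2.57 to 5.37) in Ifitm5-low cells, a log2 ratio of 5.29 (4.88 to 5.70). It was found in 236 of 317 and 24 of 695 cells, and after thinning to 5000 UMIs in 44.9% (39.4 to 50.6%) and 0.750% (0.244 to 1.74%), with 1.68% of leukocytes. The Ifitm5-low level was not above the 4.82 CPM of leukocytes, so that this ratio and its rank are not exact. Smpd3, the neutral sphingomyelinase needed for bone mineral, followed at 459 against 32.1 CPM (log2 ratio 3.80). Its ratio is not exact either, since leukocytes stood at 47.6 CPM. Col22a1, a fibril-associated collagen gene, stood at 508 against 44.3 CPM (3.49) and at 1.72 CPM in leukocytes.
Per cell, Slc13a5 had a median of 1.21 and a highest value of 10.4 UMIs per 10000 in members, and Smpd3 4.21 and 23.7. The groups overlapped for each of these genes, because Ifitm5-low cells reached 2.36 per 10000 for Slc13a5, 9.30 for Smpd3 and 14.1 for Col22a1. Other genes at the head of the ranking were Cgref1 (3.32), Col11a2 (3.30), Entpd3 (3.24), the potassium channel gene Kcnk1 (2.93), the sulfotransferase gene Chst13 (2.75), the fatty acid binding protein gene Fabp3 (2.69), Pcsk6 (2.64) and Prex1 (2.59), each given as a log2 ratio. Car3 (3.43) and the 3 osteocalcin genes Bglap (3.28), Bglap3 (3.24) and Bglap2 (3.15) completed these 15 genes.

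**Figure D1:**
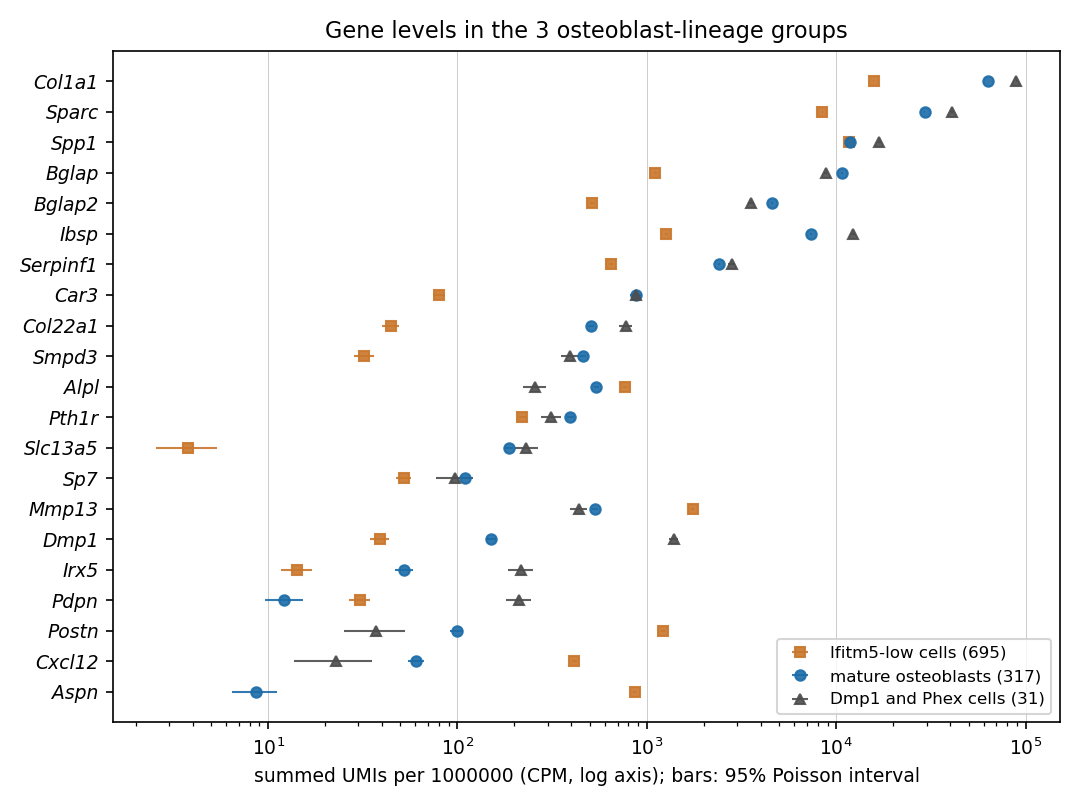
Levels of 21 genes as summed UMIs per 1000000 (CPM, log axis) in 695 Ifitm5-low cells, 317 mature osteoblasts and 31 Dmp1 and Phex cells, with 95% Poisson intervals as bars. Mature osteoblasts lie with the Dmp1 and Phex cells for Slc13a5, Smpd3 and Car3, at 186 against 230 CPM for Slc13a5 (Aspn has no UMI in the Dmp1 and Phex cells and no point there).

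The matrix genes were divided. Among 14 measured mineral matrix genes, 7 were at least 2-fold higher (the osteocalcin genes, Ibsp, the gate gene Dmp1, Sparc and Serpinf1) and 2 lower (Mgp, an inhibitor of calcification, at 47.5 against 656 CPM, and Ostn). Ibsp stood at 7367 against 1264 CPM (log2 ratio 2.54). Spp1 did not follow it, with 11791 and 11741 CPM and a log2 ratio of 0.01 (-0.01 to 0.02). Per cell, Spp1 had a median of 71.6 per 10000 in members and 7.90 in Ifitm5-low cells with an upper quartile of 112 and a highest value of 1411, so that the equal sums hid unequal medians. Of 11 genes of phosphate and mineral handling, 5 were higher (Slc13a5, Smpd3, the gate gene Phex, Enpp6 and Car3) and 2 lower (Enpp1, which makes pyrophosphate, and the phosphate transporter gene Slc20a2). The lower count is near the 18.2% of all genes. Alkaline phosphatase (Alpl) stood at 541 against 763 CPM.

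Of 19 fibrillar and associated collagens, 8 were at least 2-fold higher and 10 lower. Higher were the gate gene Col1a1, Col1a2 and Col5a2, then Col11a1, Col11a2, Col13a1, Col22a1 and Col24a1. Lower were Col3a1 (467 against 5651 CPM), the type VI genes Col6a1, Col6a2 and Col6a3, and Col5a3, Col8a1, Col12a1, Col14a1, Col16a1 and Col27a1. Collagen-processing enzymes were higher in 11 of 26, among them the crosslinking oxidase gene Lox (828 against 257 CPM), the prolyl hydroxylase genes P4ha1, P4ha2 and P3h1, the lysyl hydroxylase gene Plod2 and Serpinh1, and 2 were lower (P4ha3 and Loxl1).

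Genes that cause osteogenesis imperfecta (brittle bone disease) when mutated were higher in 14 of 21 and lower in 0, with a median log2 ratio of 1.10 against -0.44 over all genes. This list holds the gate genes Ifitm5 and Col1a1. The others were Col1a2, Serpinf1, P3h1, Serpinh1, Fkbp10, Sp7, Creb3l1, Sparc, Fam46a, Kdelr2, Sec24d and Plod2. When Ifitm5-low cells were limited to the 232 with at least 1 Sp7 UMI, a choice made after the values had been seen, 9 of 21 were higher and 1 lower. Over all genes, 258 were higher and 1175 lower in that setting, and their share of the genes measured is not given here. The median log2 ratio there was 0.96 for this list against -0.38 over all genes. Sp7 is a gene of this list, so that its own value there is set by the choice.

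Among transcription factors of bone, Sp7 (osterix) stood at 110 against 51.9 CPM, while Runx2, which starts the osteoblast program, stood at 149 against 155 CPM. Of 16 factors, 6 were higher (among them Sp7, Dlx3, Creb3l1, Tcf7 and Mef2c) and 3 lower (Dlx6, Lef1 and Zfp521). The lower count is near the 18.2% of all genes. Of the Iroquois genes, Irx5 stood at 52.1 CPM (46.6 to 58.0) against 14.2 CPM and Irx3 at 67.2 against 54.9 CPM. Of the Ifitm family, the gate gene Ifitm5 was the 1 member higher, and Ifitm1, Ifitm3 and Ifitm6 were lower. Ifitm3 stood at 303 against 793 CPM.

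The secretory machinery was higher in 7 of 31 genes and lower in 0 (Sec61b, Ssr4, Sec13, Sec23a, Sec24d, Kdelr2 and Kdelr3), with Ssr4 of the translocon at 1390 against 539 CPM. Chaperones of the endoplasmic reticulum were mostly within 2-fold, with 3 of 26 higher (Herpud1, Selenos and Creb3l1) and 1 lower (Sdf2l1). Hspa5 stood at 685 against 837 CPM. Of 24 genes for amino acid supply and targets of ATF4, 6 were higher (Slc36a2, Asns, Psat1, Mthfd2, Pycr1 and Gars) and 3 lower (Slc1a4, Slc7a11 and Glul). Glycolysis genes were lower in 2 of 17 and higher in 0, with a median log2 ratio of -0.42 near the -0.44 of all genes. Immediate early genes were higher in 2 of 19 (Ier3 and Atf3) and lower in 0, with a median of 0.27. Over all genes, 18.2% were lower and 3.14% higher, so the lower counts of this paragraph do not pass the background.

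Genes of immature osteoblasts and stroma were lower in 23 of 26 and higher in 0, with a median log2 ratio of -2.61. Periostin (Postn) stood at 99.0 against 1216 CPM, Cxcl12 at 60.5 against 415 CPM, Igf1 at 10.2 against 354 CPM and the membrane protease gene Mmp14 at 189 against 708 CPM. Mmp13, the collagenase of HCs and young osteoblasts, stood at 534 against 1749 CPM. The lowest ratios among single genes belonged to Mfap5 (-6.99), Aspn (-6.49), Thbs4 (-6.38), Tnmd (-5.98), Mfap4 (-5.96), Ly6a (-5.83), Nov (-5.65), Angptl1 (-5.38), Sema3c (-5.38), Col8a2 (-5.29) and Fndc1 (-5.19). Most of these had few UMIs in members, where the log2 value depends on the added 1 CPM. Clec3b, Itih5, Tnxb and Pi16 had only 2, 2, 1 and 0 UMIs in members against 709, 522, 540 and 490 in Ifitm5-low cells. Aspn, for example, stood at 8.60 against 861 CPM. Tendon and periosteal fibroblast markers were lower in 7 of 8 and summed to 266 against 2659 CPM, so that fibroblast markers were present in the Ifitm5-low group beside those of the osteoblast lineage. Against the 232 Ifitm5-low cells with an Sp7 UMI, immature and stromal genes were lower in 19 of 24 and higher in 0. Over all genes, 1175 were lower and 258 higher in that setting, without a share of the genes measured. The median log2 ratio there was -2.21 for this list against -0.38 over all genes. Those 232 cells held 0 UMIs of Clec3b and Tnxb, so that the ratios of these genes in that setting are set by the added 1 CPM.

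Counts of signalling genes stand beside a background of 18.2% lower and 3.14% higher over all genes. Wnt pathway genes were lower in 12 of 25 and higher in 2 (Tcf7 and the Wnt inhibitor gene Notum), and the antagonist gene Wif1 stood at 235 against 500 CPM. BMP and TGF-beta genes were lower in 19 of 37 and higher in 3 (Bmp3, Bmp7 and Bmp8a). Of 18 genes for PTH, RANKL and steroid hormone signalling, 6 were lower and 0 higher, with a median log2 ratio of -0.48 near the -0.44 of all genes (4 lower and 1 higher with scaling to the median ratio), and RANKL itself (Tnfsf11) at 15.3 against 64.8 CPM. The PTH receptor gene Pth1r stood at 395 (380 to 411) against 220 CPM. Against Ifitm5-low cells with an Sp7 UMI, Wnt genes were lower in 7 of 22 and BMP and TGF-beta genes in 11 of 32. The background of that setting is its own, with 1175 lower and 258 higher over all genes, and it is not given as a share. Median log2 ratios there were -0.58 for Wnt genes and -0.74 for BMP and TGF-beta genes, against -0.38 over all genes. Cell cycle genes were lower in 8 of 20 and higher in 0 (5 lower with scaling to the median ratio), and 51 members (16.1%) against 22.0% of Ifitm5-low cells held more than 2 UMIs of Top2a and Mki67 together, from which no cycling is read.

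**Figure D2:**
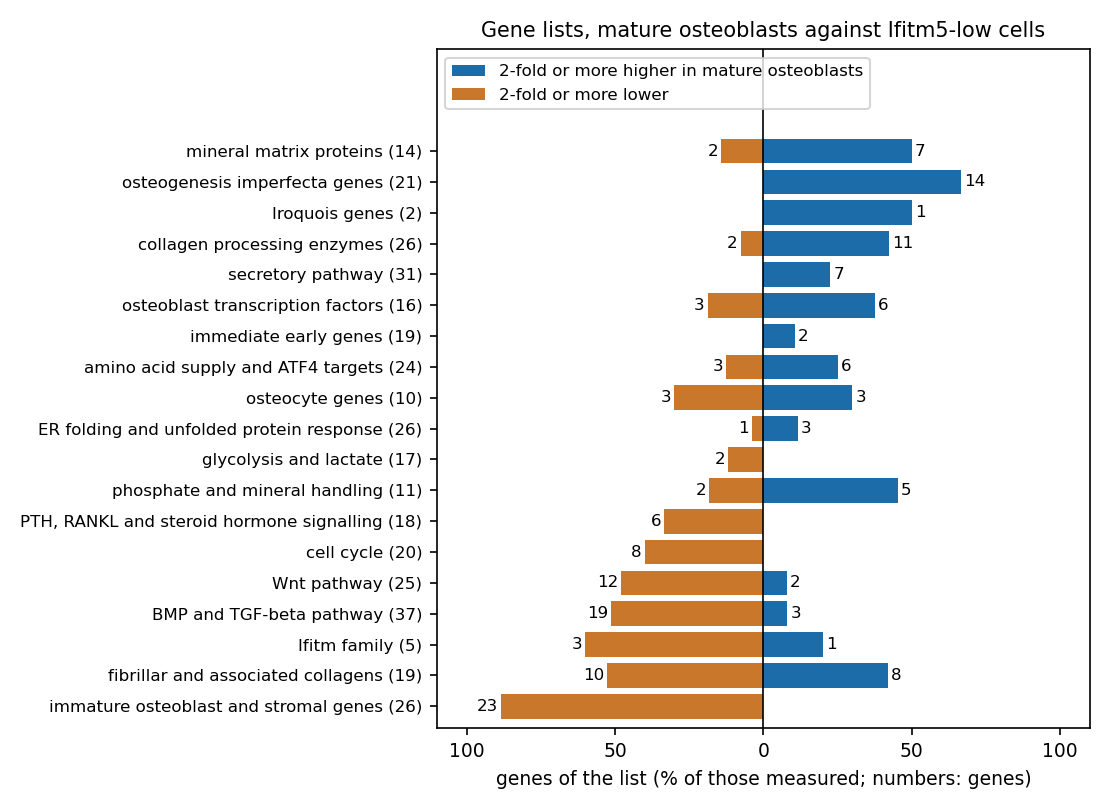
Share of each gene list (per cent of genes at 10 CPM or more in either group, number in brackets) that was at least 2-fold higher (right) or lower (left) in 317 mature osteoblasts than in 695 Ifitm5-low cells, with the number of genes at each bar. Osteogenesis imperfecta genes lie to the right with 14 of 21 and immature osteoblast and stromal genes to the left with 23 of 26.

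Markers of other cells were counted in the same way. Neutrophil markers were lower in 10 of 10 and summed to 566 against 2719 CPM, with S100a9 the most abundant. In members, 73.9% of these UMIs came from 1 barcode. With cells rich in neutrophil or haemoglobin UMIs left out of both groups, 3 of 7 neutrophil markers were lower, with a median log2 ratio of -0.61 against -0.45 over all genes. Erythroid markers were lower in 4 of 7 and summed to 7095 against 14386 CPM, but in 0 of 7 with scaling to the median ratio, 0 of 7 against Ifitm5-low cells with an Sp7 UMI and 0 of 5 without the blood-rich cells. B lymphoid markers were lower in 7 of 7 (152 against 559 CPM, of which Ebf1 was 367 CPM) and endothelial markers in 4 of 5 (67.2 against 162 CPM). Pericyte and smooth muscle markers were lower in 5 of 7 (140 against 363 CPM). Macrophage markers were lower in 1 of 2 (44.6 against 123 CPM) and osteoclast markers in 1 of 4 (320 against 508 CPM). Against Ifitm5-low cells with an Sp7 UMI, B lymphoid markers were lower in 2 of 5 and endothelial markers in 3 of 5. Pericyte and smooth muscle markers were then lower in 3 of 6 and higher in 1. The median log2 ratios of these 3 lists were -0.60, -1.02 and -1.26, against -0.38 over all genes in that setting. Over all genes, 18.2% were lower and 3.14% higher. Chondrocyte markers were near that share of lower genes, with 3 of 14 lower and 1 higher (Col11a2, the most abundant of them in members). Their median log2 ratio was -0.64 against -0.44 over all genes. They summed to 2643 against 1827 CPM. This list holds Col2a1, which the gates capped in both groups and which led it in Ifitm5-low cells at 538 CPM. HC markers were higher in 1 of 7 (Panx3) and lower in 1 (Mmp13). No skeletal muscle marker reached 10 CPM. The macrophage gene Adgre1, the osteoclast genes Atp6v0d2 and Dcstamp and the endothelial gene Stab2 had no UMI in members. Dcstamp had none in Ifitm5-low cells or in the Dmp1 and Phex cells either. Other markers of these lists were present in members. The osteoclast marker Ctsk stood at 230 CPM, the macrophage marker Lyz2 at 27.2 CPM and the endothelial marker Pecam1 at 28.3 CPM. The part of other cell types in the differences was not tested.

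The Dmp1 and Phex cells passed the same Ifitm5 gate, so that their Ifitm5 level (847 CPM) was set by the choice. Outside the gate, Car3 stood at 880 CPM in them, Bglap at 8790 CPM and Bglap2 at 3539 CPM. Of 7186 genes, 461 (6.42%) were at least 2-fold higher in mature osteoblasts and 170 (2.37%) lower, with a median log2 ratio of 0.19. When the 2 groups were scaled to the median ratio, 341 were higher and 234 lower, which moved the share of higher calls from 73.1 to 59.3%.

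Osteocyte genes were lower in mature osteoblasts in 8 of 12 and higher in 0, a list that holds the gate genes Dmp1 and Phex. Among the 8, Sost was found in only 1 of the 31 Dmp1 and Phex cells, which carries its call. Outside the gate, Pdpn (podoplanin, a gene of early osteocytes) stood at 12.2 CPM (9.64 to 15.2) against 211 CPM (181 to 244), 16.1-fold lower on the scale with 1 CPM added, and Ptprz1 at 21.0 against 214 CPM. Irx5 stood at 52.1 CPM in mature osteoblasts and 216 CPM (185 to 250) in the Dmp1 and Phex cells, where 30 of 31 cells had a UMI against 162 of 317 members. After thinning, the shares were 51.6% (33.1 to 69.9%) and 20.6% (16.3 to 25.5%), with 0.801% of leukocytes. Irx3 stood at 67.2 and 89.8 CPM. The others of the 10 lowest genes were Plpp1 (-3.44), Cd109 (-2.34), Nnmt (-2.17), the secretory kinase gene Fam20c (-2.16), Enpp1 (-1.85), Adamts14 (-1.84) and C430049E01Rik (-1.80), given as log2 ratios.

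Higher in mature osteoblasts were 9 of 18 cell cycle genes and 9 of 21 immature and stromal genes, with 0 lower in either list, and 6 of 16 collagens (Col3a1, Col6a1, Col6a2, Col6a3, Col12a1 and Col16a1), with Col24a1 lower. Alpl stood at 541 against 256 CPM. The 10 genes of highest ratio were the neutrophil genes Camp (3.11), S100a9 (2.40), S100a8 (2.16), Stfa1 (2.12) and BC100530 (1.95), the mitotic genes Birc5 (2.43), Ube2c (2.31) and Cenpa (2.02), and Mest (2.19) and Fmod (2.05). The neutrophil markers in mature osteoblasts were mostly in the 1 barcode named above. With doublets called by Scrublet left out, S100a8 had a log2 ratio of -0.08.

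Osteocalcin was spread widely over the mature osteoblasts. The members were ranked by Bglap and Bglap2 UMIs per 10000 and cut into 3 parts of near equal size, which are ranges and not cell types. Osteocalcin-low cells (106) ran from 0 to 0.771 per 10000, osteocalcin-mid cells (106) from 0.779 to 48.4 and osteocalcin-high cells (105) from 51.5 to 1604. Within 2-fold of the first boundary lay 65 members, and within 2-fold of the second 31. Bglap in osteocalcin-low cells stood at 10.9 CPM (6.93 to 16.4), beside 12.4 CPM (10.95 to 14.07) in leukocytes, a level that the choice of these cells fixed from above. It stood at 720 CPM in osteocalcin-mid cells and 28961 CPM in osteocalcin-high cells. In all, 120 of 317 members (37.9%) held under 1 UMI of osteocalcin per 10000. Depth was alike, with medians of 18434, 17378.5 and 20607 UMIs from osteocalcin-low cells to osteocalcin-high cells.

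Several other markers differed little between these ranges. Car3 stood at 709 CPM in osteocalcin-low cells and 991 CPM in osteocalcin-high cells, Col22a1 at 468 and 539 CPM, Smpd3 at 526 and 414 CPM and Sp7 at 96.9 and 121 CPM. Each of these 4 genes lay within 2-fold between all cells low and all cells high in osteocalcin. Among cells with more than 14 WPRE UMIs, Car3 stood at 652 CPM in 69 osteocalcin-low and 1669 CPM in 9 osteocalcin-high cells. Without the highest of these 9 cells the level was 1458 CPM. Among cells with at most 14 WPRE UMIs, Car3 stood at 831 and 911 CPM. Ifitm5 stood at 962 and 770 CPM, but as the gate gene it was held at 3 per 10000 or more in every cell.

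**Figure D3:**
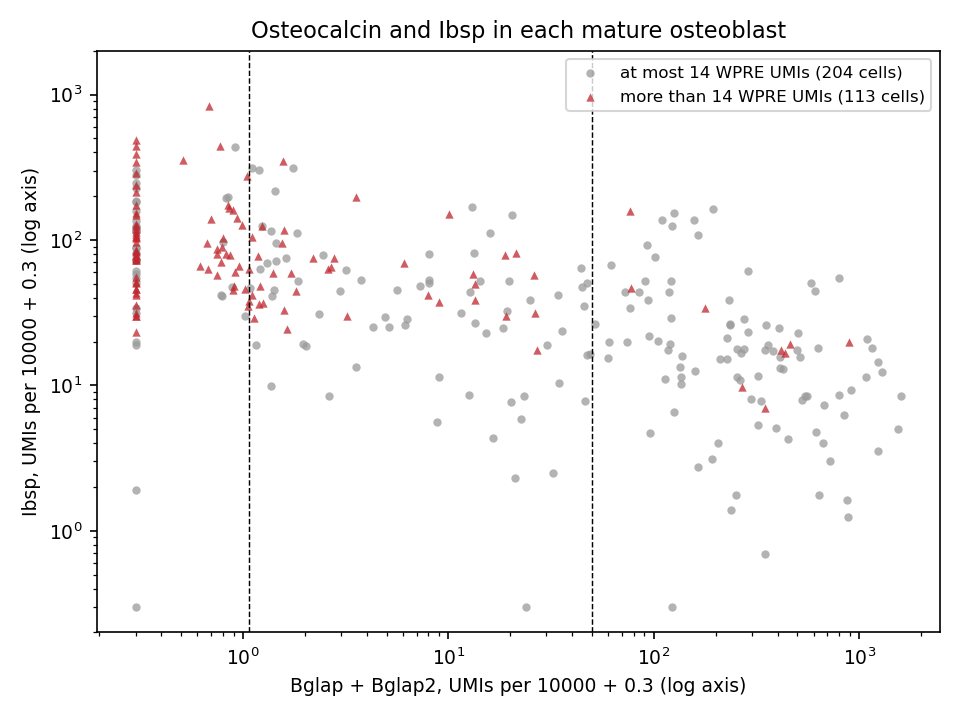
Each of the 317 mature osteoblasts by its osteocalcin (Bglap and Bglap2, UMIs per 10000 with 0.3 added, log axis) and Ibsp (the same scale), with dashed lines at the 2 boundaries. Cells with more than 14 WPRE UMIs (113, triangles) lie mostly at the left, and Ibsp falls towards the right, from a median of 84.4 per 10000 in osteocalcin-low cells to 16.5 in osteocalcin-high cells.

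Bone sialoprotein ran against osteocalcin. Ibsp stood at 13617 CPM (13460 to 13776) in osteocalcin-low cells, 6154 CPM in osteocalcin-mid cells and 2725 CPM (2658 to 2793) in osteocalcin-high cells, a log2 ratio of -2.32 (-2.36 to -2.28). Per cell, the median was 84.4 per 10000 in osteocalcin-low cells (lowest 0, highest 836) and 16.5 in osteocalcin-high cells (lowest 0, highest 162). The groups overlapped, yet the lower quartile of osteocalcin-low cells (52.0) lay above the upper quartile of osteocalcin-high cells (26.3). Ibsp was present in nearly every cell of both, with 105 of 106 and 104 of 105 cells.

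Mmp13 ran the same way. It stood at 1008 CPM (966 to 1052) in osteocalcin-low cells and 78.5 CPM (67.5 to 90.7) in osteocalcin-high cells, the latter near the 82.2 CPM of leukocytes. It was found in 74 of 106 and 21 of 105 cells, and after thinning in 54.7% (44.8 to 64.4%) and 7.62% (3.35 to 14.5%), against 6.73% of leukocytes. Over all osteocalcin-high cells Mmp13 was therefore not separated from the leukocyte level, and a ratio against these cells is not exact. The highest osteocalcin-high cell held 17.8 and the highest leukocyte 62.1 per 10000. Panx3, a channel gene of HCs and osteoblasts, stood at 136 and 33.2 CPM, and Tnc at 457 and 127 CPM. Serpine2, a protease inhibitor gene, had a median of 16.7 per 10000 in osteocalcin-low cells and 2.48 in osteocalcin-high cells.

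Other matrix genes ran with osteocalcin. Dcn stood at 1445 and 4135 CPM (log2 ratio 1.52), Serpinf1, the anti-angiogenic factor PEDF, at 1497 and 3697 CPM (1.30) and Spp1 at 7432 and 15701 CPM (1.08). Dmp1 stood at 86.5 and 241 CPM (1.47), and it was a gate gene together with Phex. Col1a1 stood at 44373 and 82648 CPM. Across the 317 cells the Spearman correlation with osteocalcin was 0.66 for Dcn, -0.65 for Ibsp, -0.62 for Serpine2, 0.56 for Serpinf1, 0.50 for Col1a1, -0.43 for Mmp13, 0.41 for Spp1, -0.19 for Ifitm5, 0.16 for UMIs per cell and 0.10 for Car3. These describe cells of 1 library that share its depth and free RNA.

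**Figure D4:**
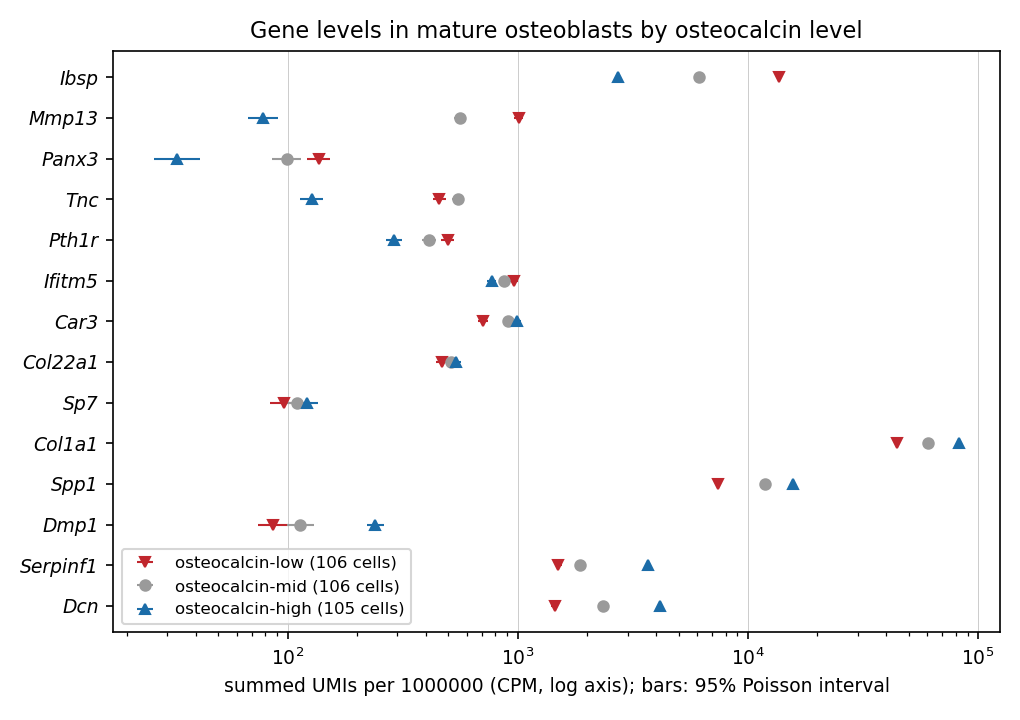
Levels of 14 genes as summed UMIs per 1000000 (CPM, log axis) in osteocalcin-low (106), osteocalcin-mid (106) and osteocalcin-high (105) mature osteoblasts, with 95% Poisson intervals as bars. Ibsp falls from 13617 to 2725 CPM and Dcn climbs from 1445 to 4135 CPM between osteocalcin-low cells and osteocalcin-high cells, while Car3, Col22a1 and Sp7 lie close together.

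Over 7321 genes, 109 (1.49%) were at least 2-fold higher in osteocalcin-high cells than in osteocalcin-low cells and 555 (7.58%) lower, with a median log2 ratio of -0.35. With scaling to the median ratio the split was 226 higher and 250 lower, which moved the share of higher calls from 16.4 to 47.5%. Mineral matrix genes were higher in 8 of 13 (Bglap and Bglap2, which set the ranges, their near copy Bglap3, Spp1, Dmp1, Omd, Serpinf1 and Dcn) and lower in 2 (Ibsp and Mgp). Cell cycle genes were lower in 10 of 19 and higher in 0, and immature and stromal genes lower in 8 of 22 and higher in 0. With scaling to the median ratio these were 5 of 19 and 0, and 8 of 22 and 2. No osteoblast transcription factor of 13 passed 2-fold, but 2 were higher after that scaling, and none of 31 secretory pathway genes passed 2-fold either way. Phosphate and mineral genes had 1 of 11 lower (Slc20a1) and 0 higher, near the background, and 0 lower and 1 higher with that scaling. HC markers had 3 of 7 lower (Col10a1, Mmp13 and Panx3) and 1 higher (Spp1).

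Of the 20 genes of largest ratio between the 2 groups, 6 of the 10 lower in osteocalcin-high cells were Camp, S100a8, BC100530, Stfa1, S100a9 and Gm5483, genes that stood between 1849 and 15941 CPM in leukocytes. Neutrophil markers summed to 1445 CPM in osteocalcin-low cells and 126 CPM in osteocalcin-high cells, and 87.9% of the osteocalcin-low cells' UMIs of them lay in 1 barcode. Erythroid markers summed to 3651 and 8100 CPM, with 89.7% and 44.1% in 1 barcode each. Neutrophil markers were lower in 7 of 7 and erythroid markers higher in 7 of 7, and in 1 of 5 and 0 of 4 once blood-rich members were left out. B lymphoid markers were lower in 5 of 5 (205 CPM in osteocalcin-low and 73.7 CPM in osteocalcin-high cells) and again in 5 of 5 after that step. Over all members of these ranges, 26.2% and 35.1% of their UMIs lay in 1 barcode each. Ebf1 alone stood at 108 and 44.0 CPM. With 10 members rich in neutrophil or haemoglobin UMIs left out, an alternative added after the values had been seen, the ranking was led by Pecam1 (5.88 CPM in osteocalcin-low and 54.1 CPM in osteocalcin-high cells), Lipc (log2 ratio 2.46), Fxyd6 (2.35) and Cryab (2.05, a small heat shock protein gene) among the genes higher in osteocalcin-high cells and by Lpl (-4.30), Mmp13 (-3.65), Cxcl12 (-3.38), Ibsp (-2.32), Col10a1 (-2.29) and Serpine2 (-2.29) among those lower. Single cells carried some of these, since 1 osteocalcin-low cell held 75 of 128 Lpl and 129 of 257 Cxcl12 UMIs, and another 63 of 106 Col10a1 UMIs. Mmp13 and Ibsp were spread over 73 and 102 osteocalcin-low cells. Lipc was found, without thinning, in 24 osteocalcin-low and 86 osteocalcin-high cells.

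Pecam1, an endothelial adhesion gene, was found in 40 osteocalcin-high and 9 osteocalcin-low cells after those members were left out. Endothelial markers were higher in 4 of 4 (Pecam1, Cdh5, Emcn and Egfl7) and summed to 128 against 16.6 CPM, with 23.8% of the osteocalcin-high cells' UMIs in 1 barcode. After thinning, Pecam1 was found in 17.1% of osteocalcin-high cells (10.5 to 25.7%), 3.77% of osteocalcin-low cells (1.04 to 9.38%) and 9.22% of leukocytes, which carry the gene too. The part of endothelial RNA in this was not tested.

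The reporter, counted in a matrix that the gates did not use, was unevenly spread over these ranges. More than 14 WPRE UMIs, the cutoff by which the study calls a cell HC-derived, were found in 113 of 317 mature osteoblasts (35.7%, 30.4 to 41.2%). They were found in 69 of 106 osteocalcin-low cells (65.1%, 55.2 to 74.1%), 35 of 106 osteocalcin-mid cells (33.0%, 24.2 to 42.8%) and 9 of 105 osteocalcin-high cells (8.57%, 3.995 to 15.7%). The share was 7.34% of 695 Ifitm5-low cells (5.51 to 9.54%), 25.8% of the 31 Dmp1 and Phex cells (11.9 to 44.6%), 1.22% of leukocytes and 1.16% of 605 red cell precursors. The cutoff counts raw UMIs and so favours deeply sequenced cells. Median depth was 18644 UMIs in members, 10490 in Ifitm5-low cells, 21723 in the Dmp1 and Phex cells, 12781.5 in leukocytes and 13197 in red cell precursors. The part of depth in these differences was not tested. The tdTomato sequence, far less often captured, was found in 29.3% of osteocalcin-low and 3.81% of osteocalcin-high cells.

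**Figure D5:**
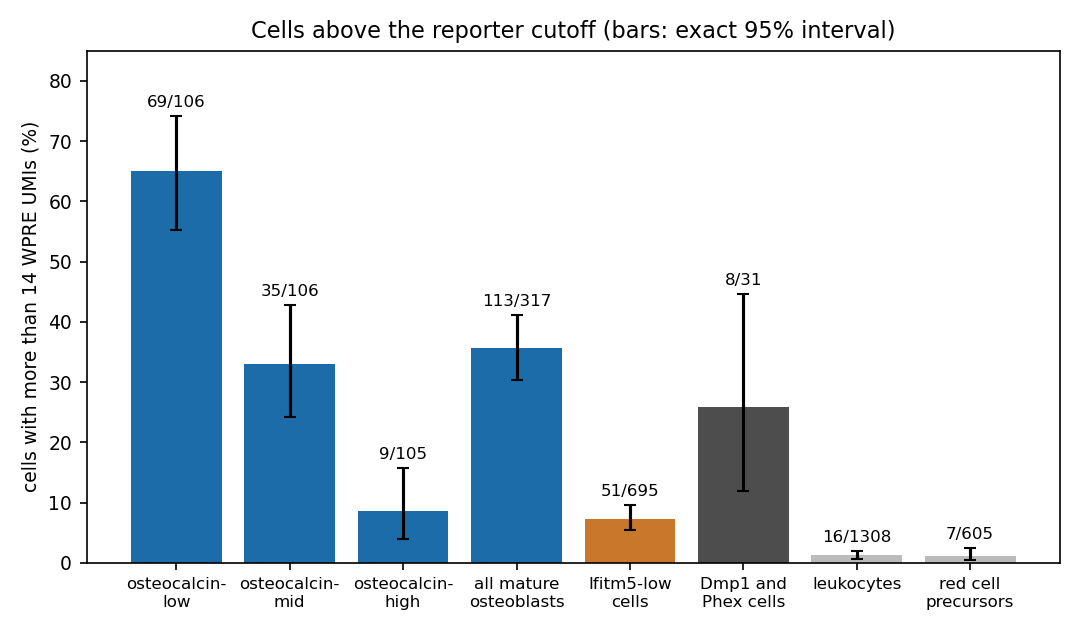
Share of cells with more than 14 WPRE UMIs (per cent, axis from 0) in mature osteoblasts by osteocalcin level, all mature osteoblasts and 4 other groups, with exact 95% intervals and the number of cells. The share drops from 65.1% in osteocalcin-low cells to 8.57% in osteocalcin-high cells, and leukocytes lie at 1.22%. The cutoff is on raw UMIs, and median depth differed between mature osteoblasts and the other groups.

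In finer ranges, 77 of 120 members under 1 osteocalcin UMI per 10000 were above the cutoff (64.2%), 18 of 51 from 1 to 10 (35.3%), 9 of 41 from 10 to 50 (22.0%), 2 of 15 from 50 to 100 (13.3%), 6 of 62 from 100 to 500 (9.68%) and 1 of 28 at 500 or more (3.57%). Ifitm5-low cells under 1 per 10000 had 31 of 410 above it (7.56%).

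Mature osteoblasts above the reporter cutoff had a median osteocalcin of 0.568 per 10000 and 68.1% of them (58.7 to 76.6%) lay under 1 per 10000, while those at or below the cutoff had a median of 44.1 and 21.1% (15.7 to 27.3%) under 1. The contrast in Ibsp between the cells low and high in osteocalcin was present on both sides of the cutoff. Among cells above it, Ibsp stood at 14146 CPM in 69 osteocalcin-low cells and 3273 CPM in 9 osteocalcin-high cells, and among cells at or below it at 12499 CPM in 37 and 2661 CPM in 96 cells. In the 9 cells, 394 of 796 Ibsp UMIs came from 1 cell, and without it the level was 1844 CPM. For Mmp13 the values were 1224 and 444 CPM above the cutoff and 553 and 35.6 CPM at or below it. Only 2 of the 9 osteocalcin-high cells above it had Mmp13, with 78 of 108 UMIs in 1 cell, and without that cell the level was 155 CPM. Among osteocalcin-low cells at or below the cutoff, 1 cell held 135 of 374 Mmp13 UMIs, and the level without it was 361 CPM. Leaving out single cells was chosen after the values had been seen. The sums of Spp1 were alike above the cutoff, at 8232 CPM in osteocalcin-low and 8265 CPM in osteocalcin-high cells. The per-cell medians of Spp1 there were 32.7 and 65.5 per 10000. At or below the cutoff Spp1 stood at 5744 and 16572 CPM. All of these come from 1 mouse, and how far they would vary between animals was not measured.

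Sost, the Wnt inhibitor gene of mature osteocytes, had 8 UMIs in 2 osteocalcin-high cells and none in osteocalcin-low cells or osteocalcin-mid cells (0 of 106 each). Irx5 stood at 66.0 CPM in osteocalcin-low cells and 38.8 CPM in osteocalcin-high cells, and Irx3 at 73.6 and 44.8 CPM. Pth1r stood at 496 and 290 CPM, and Mmp14 at 219 and 159 CPM.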

How the data were processed

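Single-cell libraries of P6 tibiae were made with the 10x Genomics protocol. The authors deposited raw UMI counts of each gene in each barcode from Cell Ranger 3.1.0 on mm10 with tdTomato and WPRE added (31053 genes, 14181 barcodes, median 8235 UMIs), and a second count matrix of 98 exogenous sequences. The submitters' notes also name Seurat 3. No release of the gene annotation was named in the sources used here. The P56 sample was not analysed here.

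Members followed a rule on the counts. Levels are summed UMIs per 1000000 with exact Poisson intervals, shares have exact Clopper-Pearson intervals (95%), and log2 ratios have 1 CPM added. Genes at 10 CPM or more in either group were counted past 2-fold. With 1 mouse no difference was tested. The code for ratios and intervals was checked on simulated counts. Detection shares in percent are given on cells thinned to 5000 UMIs each unless stated, and numbers of cells with a UMI are unthinned. Scrublet (scanpy 1.11.5, expected rate 10%) called 588 barcodes doublets, which were kept. Coordinates come from GENCODE M21 (GRCm38) and promoters from RefSeq (GRCm38.p6). Python 3.11.15, numpy 2.4.6, scipy 1.17.1, pandas 2.3.3 and matplotlib 3.10.9 were used.

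Named genes were those of 30 lists (527 of 529 entries found), the 20 most abundant, and the 15 (against Ifitm5-low cells) or 10 (otherwise) of largest ratio in each direction among non-gate genes with at least 50 CPM and 100 UMIs. The members and lists were chosen with earlier results of these data known. The gates, the scaling, the pseudocount, the minimum level, the fold and the reporter cutoff were varied, and 3 alternatives and a longer promoter window were added after the values had been seen. The values of 1 gene of these lists are not reported here.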

Additional observations from a re-analysis of the deposited data

Results flagged for a closer look

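Among the exogenous sequences, EGFP had 6 UMIs in 6 mature osteoblasts, 7 in Ifitm5-low cells, 1 in leukocytes and 60 over all barcodes. It drew attention because the labels name no GFP allele for this mouse. The value was not analysed further.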

How the results depend on the processing

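No paired analysis was possible because the 4 sequencing entries are 1 library of 1 mouse, and no replicate could be left out. Of the group-level values under alternatives, 138 stayed within the counting interval of the main value (levels and shares) or within 1.5 times the main count (counts of genes or members) and 50 did not. Among the remaining values, which hold the log2 ratios, 1005 were labelled the same, 347 moved and 12 reversed. Of 1296 log2 ratios, 12 changed sign. The causes were not tested, and depth limits single cells to a few UMIs of rare genes.

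Between osteocalcin-high and osteocalcin-low cells the log2 ratio of Ibsp ranged from -2.51 to -2.01 over the settings run, and the reporter share was higher in osteocalcin-low cells under each setting that changed the cells or the reporter cutoff. Bglap and Ibsp in mature osteoblasts stood at 10910.2 and 6666.0 CPM with at most 5% mt- UMIs (189 members), 10462.1 and 7081.6 CPM with Ifitm5 at 2 per 10000, 8412.3 and 8103.6 CPM with Ifitm5 at 5, 9237.6 and 7176.9 CPM as a mean over cells, 11356.7 and 7795.3 CPM without haemoglobin and mt- UMIs in the total, 10939.4 and 7508.8 CPM without osteocalcin in it, 10816.6 and 7542.0 CPM without cells rich in neutrophil or haemoglobin UMIs, and 12070.3 and 7440.9 CPM without members holding over 2 Top2a and Mki67 UMIs. Bglap stood at 11039.3 CPM with 0 Ptprc UMIs and 10859.9 CPM without called doublets. With at least 1 tdTomato UMI in place of the WPRE cutoff, the shares were 15.46% of all members, 29.25% of osteocalcin-low and 3.81% of osteocalcin-high cells.

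Counts of genes moved with the rule. Against Ifitm5-low cells, 173 were higher and 688 lower with 10 CPM added, 155 and 444 with a minimum of 50 CPM, 117 and 681 past 3-fold, and 2839 were lower with no minimum. Against Dmp1 and Phex cells the higher and lower counts were 94 and 60, 59 and 42, 120 and 53, and 1794 and 634 under these settings, 698 were higher with at most 5% mt- UMIs and 283 lower as a mean over cells. Between osteocalcin-high and osteocalcin-low cells they were 41 and 122, 29 and 115, 39 and 119, and 523 and 1347, 164 were higher with at most 5% mt- UMIs, and 226 and 250 were higher and lower with scaling to the median ratio.

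Log2 ratios that changed sign were mostly of neutrophil genes. Against Dmp1 and Phex cells, S100a8 stood at -0.29 with Ifitm5 at 5, -0.08 without doublets and -0.00 without members holding over 2 Top2a and Mki67 UMIs, and Ube2c at -0.71 without members holding over 2 Top2a and Mki67 UMIs. Between osteocalcin-high and osteocalcin-low cells, Camp stood at 0.07, 0.15, 0.16 and 0.43 with Ifitm5 at 5, without doublets, without neutrophil-rich or haemoglobin-rich cells and without members holding over 2 Top2a and Mki67 UMIs, and Gm5483 at 0.42 and 0.02 under the first 2. Clec3b (0.39) and Tnxb (0.21) changed sign against Ifitm5-low cells with an Sp7 UMI, values set by the added 1 CPM, since members held 2 and 1 UMIs and those cells 0.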
